A study of Mus musculus with 180 samples.

Results

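Omipalisib, an inhibitor of PI3K and mTOR, was compared directly with AZD-2014, an inhibitor developed against mTOR, in mouse bone marrow-derived macrophages stimulated with lipopolysaccharide (LPS). The comparison used 6 of the 180 RNA-seq samples of the study, 3 for each compound, and read all 12714 genes, of 45070 listed, whose mean normalized value over all samples was at least 10. The study profiled 58 clinical kinase inhibitors (CKIs) and 2 sets of DMSO vehicle controls, each in 3 samples. All macrophages were wild type, were grown from the marrow of young adult male C57/BL6 mice, and received compound or DMSO for 1 h and then LPS at 10 ng/ml for 2 h, so that no group was free of LPS. Omipalisib was used at the higher concentration of the 2 compounds, and each concentration had been set on another kinase that the compound binds (IRAK3 for Omipalisib, PFKP for AZD-2014), so a difference between the compounds and a difference between the concentrations cannot be told apart.

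PI3K makes the membrane lipid PIP3, which recruits and activates the kinase AKT. AKT holds FOXO transcription factors out of the nucleus and releases mTORC1 from its brake, and mTORC1 in turn drives translation, sterol synthesis through SREBP, and the amino acid response factor ATF4, while it keeps the lysosomal factors TFEB and TFE3 out of the nucleus. An inhibitor of the mTOR kinase acts on mTORC1 and mTORC2, and an inhibitor that also takes in PI3K adds the lipid kinase above them. In macrophages this pathway runs beside the TLR4 signals that LPS sets off through NF-kB, MAP kinases and IRF3.

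Normalized values summed to 11043189 to 12088642 in the Omipalisib samples and 9559895 to 10769656 in the AZD-2014 samples. These are totals after the authors' scaling, not read depth. All 8 macrophage markers were present in each group, with summed values of 103149 to 149363 for Omipalisib and 109866 to 173988 for AZD-2014, against 5 to 16 over 6 B cell markers and 0 to 3 over 6 erythroid markers in the same 6 samples. Summed markers of dendritic cells (176 to 295 against 101 to 174), of fibroblasts (39 to 60 against 19 to 23) and of mast cells and basophils (30 to 39 against 12 to 29) did not overlap and were higher with Omipalisib, at levels far below the macrophage markers. The dendritic markers did not go one way. *Xcr1* measured 108, 152 and 106 with Omipalisib against 32, 25 and 49, and *Zbtb46*, near the floor, 6, 6 and 3 against 0, 0 and 2. *Ccr7* overlapped, and *Flt3* (4, 3 and 5 against 6, 8 and 5) and *Siglech* (1, 1 and 0 against 5, 2 and 5) were no higher. The mast cell sum was nearly all *Kit*, with *Mcpt4*, *Mcpt8* and *Fcer1a* at 0 in all 6 samples. The neutrophil genes *Elane* (0, 1 and 1 against 17, 20 and 16) and *Mpo* (3, 3 and 1 against 10, 17 and 17) were lower, while the summed neutrophil markers overlapped. The part of these markers in the results was not tested. Mitochondrially encoded transcripts took 1.29 to 2.19% of the total with Omipalisib, 0.965 to 1.54% with AZD-2014 and 0.759 to 1.95% with DMSO. Bulk RNA cannot tell fewer cells of a type from less RNA per cell. No sample was a repeat deposit of another: the SD of log2 differences between samples was at least 0.38.

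The compounds differed in 2502 of 12714 genes (19.7%): 2164 (17.0%) were higher and 338 (2.66%) lower with Omipalisib than with AZD-2014 at an adjusted p under 0.05 (limma's moderated test, Benjamini-Hochberg adjustment over all genes tested), the rule by which genes are called below. Each SE and p-value used the spread within all 60 groups of the study, not that of the 6 compared samples alone. An unadjusted p under 0.05 was reached by 3865 genes (30.4%). Among the called genes, 1035 were higher (8.14% of those tested) and 70 lower (0.551%) by at least 1 on the log2 scale, a difference of log2(value + 1). The 3 values of each compound did not overlap for 4583 genes (36.0% of those tested), with Omipalisib above for 3502 (27.5%) and below for 1081 (8.50%), and 2415 of the 2502 called genes were among them. The median difference over all genes was 0.14 on the log2 scale as deposited, and list medians are to be read against it. Beside DMSO, 2220 genes were higher (17.5%) and 1031 lower (8.11%) with Omipalisib, and 758 were higher (5.96%) and 1720 lower (13.5%) with AZD-2014, both set against the same 6 DMSO samples. The median difference from DMSO over all genes was 0.12 with Omipalisib and -0.02 with AZD-2014, and list medians beside DMSO are to be read against these. Among the 10212 genes not called, 7224 (70.7%) had a 95% interval of the difference within -1 to 1.

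**Figure D1:**
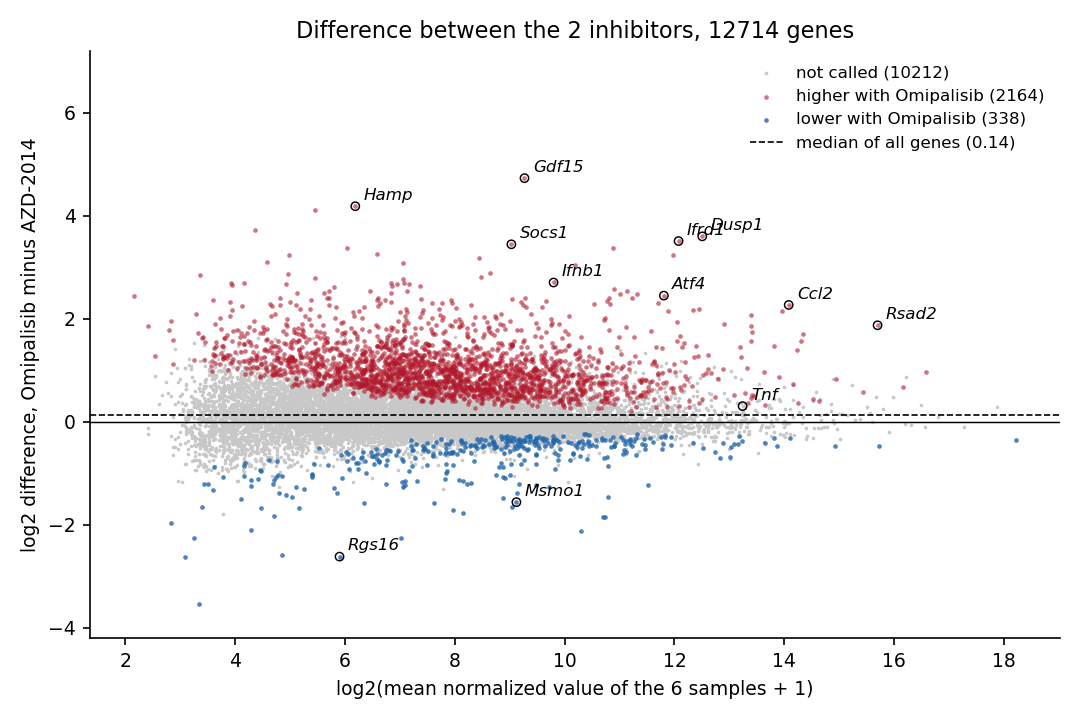
Each point is 1 of 12714 genes, with the mean level of the 6 samples on the x axis and the log2 difference between Omipalisib and AZD-2014 (n = 3 each) on the y axis; red and blue mark the 2164 genes called higher and the 338 called lower. The called genes lie mostly above zero, and the dashed line marks the median of all genes, 0.14.

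The share of called genes that were higher with Omipalisib, 86.5% as deposited, depended on the scale. It was 65.6% (1607 higher, 841 lower) after median-of-ratios scaling, which moved the median of all genes to 0.00, and 62.5% (1325 and 794) with equal totals, which moved it to -0.04. The difference also ran with transcript length: the median rose from -0.09 in the shortest eighth of genes (up to 1033 bases, 4.28% called higher) to 0.53 in the longest (5997 bases and more, 35.1% called higher). Along the same eighths the difference from DMSO went from 0.30 to -0.20 with AZD-2014, and was 0.22 and 0.31 at both ends with Omipalisib. Removing a smooth length trend from every sample left 1257 genes higher and 748 lower (62.7% higher), and removing a trend with GC content left 1540 and 889 (63.4%). The part of length and GC content in the results below was not tested further than this. Leaving out AZD-2014 replicate 2, which had the lowest AZD-2014 value for 6743 of the 12714 genes, left 1349 higher and 208 lower.

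**Figure D2:**
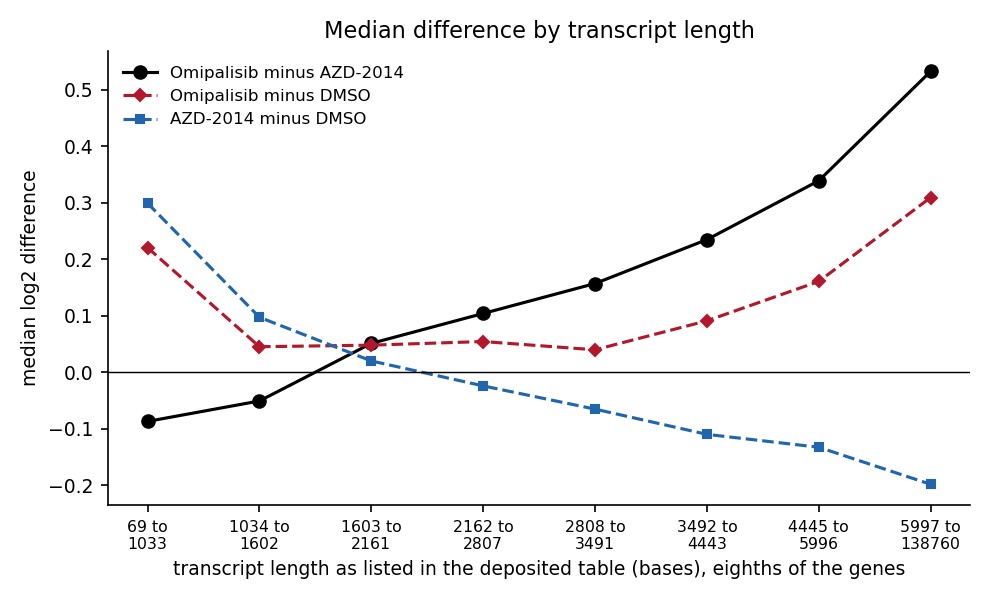
Median log2 difference (y axis) in 8 equal groups of genes ordered by transcript length in bases (x axis), for Omipalisib minus AZD-2014 (black) and for each compound minus DMSO (red and blue). The black line climbs from -0.09 to 0.53, and the blue line falls from 0.30 to -0.20.

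Several of the largest differences were in stress and signalling genes that stood far above the vehicle level with Omipalisib. *Gdf15*, a stress-induced cytokine of the TGF-beta family, measured 992, 1755 and 821 in the 3 Omipalisib samples, 28, 61 and 42 in the AZD-2014 samples and 41 to 88 (median 47) with DMSO. Every Omipalisib value lay above all AZD-2014 and DMSO values, and the AZD-2014 values overlapped the DMSO range. Its log2 difference was 4.73 ± 0.52 (SE), adjusted p = 7.48e-13, a 26.5-fold ratio on this scale. *Ifrd1*, a transcriptional co-regulator, followed at a higher level, with 8650, 7962 and 7182 against 672, 664 and 755 (3.50 ± 0.34 (SE), adjusted p = 1.04e-15), and DMSO samples at 645 to 1300 (median 1109). *Hamp*, which encodes the iron hormone hepcidin, measured 157, 153 and 102 against 9, 6 and 5 (4.18 ± 0.60 (SE), adjusted p = 1.47e-08). *Plagl1*, a zinc finger transcription factor, measured 608, 471 and 807 against 67, 55 and 83 (3.17 ± 0.35 (SE), adjusted p = 1.15e-12).

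A pair of regulators of G-protein signalling moved in opposite directions. *Rgs1* measured 7178, 10004 and 4641 with Omipalisib and 1208, 476 and 686 with AZD-2014 (3.24 ± 0.50 (SE), adjusted p = 1.61e-07), against 147 to 561 (median 294.5) with DMSO, so that the lowest AZD-2014 value alone overlapped the vehicle range. *Rgs16* measured 15, 8 and 28 against 72, 106 and 124 (-2.62 ± 0.51 (SE), adjusted p = 3.23e-05), the lowest log2 difference among the genes named by rank, and the AZD-2014 values lay within the DMSO range of 35 to 131 (median 111). *Rhov*, an atypical small GTPase, *Htr2a*, a serotonin receptor, and *Hbegf*, a ligand of the EGF receptor, also stood among the 12 largest differences, at 4.11, 3.37 and 3.24 on the log2 scale, and each was under 20 in all AZD-2014 samples. *Mfsd12*, which encodes a lysosomal membrane protein, was at 3482, 4118 and 2714 against 316, 312 and 360 (3.36 ± 0.29 (SE), adjusted p = 5.11e-18). The listed transcript 4930404N11Rik overlaps it, and their reads cannot be told apart.

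**Figure D3:**
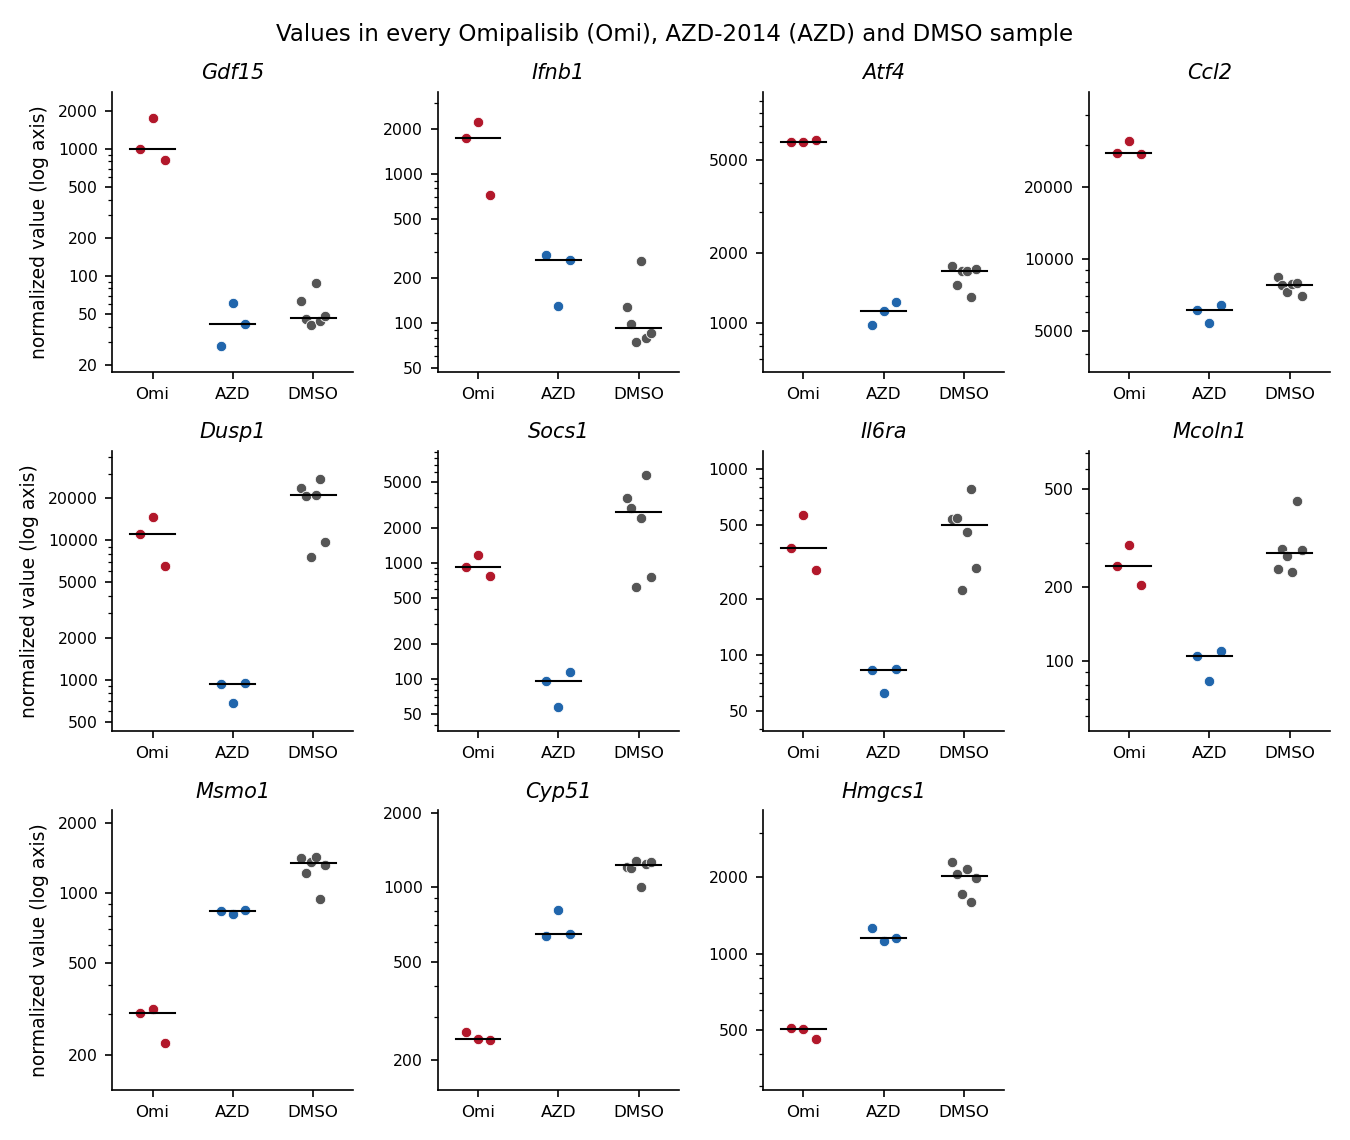
Normalized values (log axis) of 11 genes in each of the 3 Omipalisib, 3 AZD-2014 and 6 DMSO samples, with a bar at each median. In the top row Omipalisib lies above both other groups, in the middle row AZD-2014 lies below both, and in the bottom row Omipalisib lies lowest with AZD-2014 between it and DMSO.

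The ATF4 gene itself separated the compounds with the lowest adjusted p of its list. *Atf4*, the transcription factor of the amino acid and integrated stress responses, measured 6009, 6011 and 6143 with Omipalisib, 986, 1126 and 1235 with AZD-2014 and 1293 to 1753 (median 1671) with DMSO. Omipalisib values lay above the DMSO range and AZD-2014 values below it, without overlap (2.44 ± 0.11 (SE), adjusted p = 3.46e-42, a 5.45-fold ratio). Of 35 tested genes of the ATF4 stress response, 10 were higher with Omipalisib and none lower, where 17.0% and 2.66% of all genes were, and their median difference was 0.40. *Ppp1r15a*, which encodes the phosphatase subunit that restores translation after stress, measured 7253, 7604 and 5354 against 1980, 1557 and 1699 (1.94 ± 0.16 (SE), adjusted p = 1.09e-18). *Slc38a2*, a neutral amino acid carrier, was at 7059, 6191 and 7305 against 2078, 2465 and 2622 (1.52 ± 0.23 (SE), adjusted p = 1.01e-07), and *Slc3a2*, the heavy chain of several amino acid carriers, differed by 1.01. The other called members were *Slc7a11*, *Ddit3*, *Chac1*, *Atf5*, *Gars* and *Trib3*, the last at 42, 44 and 76 against 14, 36 and 19 with DMSO at 35 to 93 (median 58) (1.25 ± 0.39 (SE), adjusted p = 0.0129), a call lost without Omipalisib replicate 3 or AZD-2014 replicate 1. *Asns*, which makes asparagine, did not pass (300, 310 and 428 against 224, 237 and 327, 0.40 ± 0.27 (SE), adjusted p = 0.333), and the tRNA synthetase genes other than *Gars* were not called. Read beside DMSO, the list had a median of -0.10 with Omipalisib and -0.25 with AZD-2014.

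A second set of genes was higher with Omipalisib where AZD-2014 samples lay far below the vehicle. *Dusp1*, the phosphatase that switches off p38 and JNK, measured 927, 683 and 952 with AZD-2014, 11104, 14699 and 6549 with Omipalisib and 7541 to 27409 (median 21024) with DMSO. The AZD-2014 values lay below every other value, whereas the Omipalisib values overlapped the DMSO range from below (3.60 ± 0.46 (SE), adjusted p = 3.02e-10, a 12.1-fold ratio). *Socs1*, an inhibitor of JAK-STAT signalling, had the same order, with 96, 57 and 115 for AZD-2014, 920, 1172 and 774 for Omipalisib and 618 to 5735 (median 2718.5) for DMSO (3.44 ± 0.64 (SE), adjusted p = 1.41e-05). The low DMSO values were those of replicate 3 of both sets, 7541 and 9752 for *Dusp1* and 618 and 754 for *Socs1*. All other DMSO samples were at 20808 or more and 2451 or more. DMSO values of *Jun*, *Il6ra* and *Il17ra* split the same way. *Jun*, a subunit of AP-1, measured 447, 402 and 710 with AZD-2014 against 2459, 2481 and 2396 with Omipalisib (2.28 ± 0.30 (SE), adjusted p = 9.15e-10). *Phlda1*, a target of MAP kinase signalling, measured 19, 27 and 62 against 168, 170 and 144 (2.30 ± 0.35 (SE), adjusted p = 8.87e-08). *Il6ra*, the IL-6 receptor, was at 83, 62 and 84 against 378, 569 and 286 with DMSO at 224 to 782 (median 499.5) (2.37 ± 0.37 (SE), adjusted p = 1.61e-07). *Il17ra*, a receptor of IL-17, was at 794, 598 and 895 against 4004, 4654 and 3355 (2.40 ± 0.28 (SE), adjusted p = 1.36e-11). Its DMSO values of 1126 to 2804 (median 2084) lay above all AZD-2014 and below all Omipalisib values. The translation factor gene *Eif5* likewise had the compounds on opposite sides of the vehicle. It measured 641, 686 and 1041 with AZD-2014, 4343, 4381 and 4239 with Omipalisib and 2002 to 2909 (median 2281.5) with DMSO (2.49 ± 0.26 (SE), adjusted p = 6.76e-14).

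AZD-2014 had the lowest mean of all 60 groups for *Dusp1*, *Socs1*, *Jun*, *Phlda1*, *Il6ra*, *Il17ra* and *Eif5*. For *Dusp1* the next lowest means were those of Afatinib, an ERBB inhibitor (1214, 1357 and 1513), and BMS-911543, a JAK2 inhibitor (717, 846 and 3825), both used at concentrations of their own. The samples of 3 inhibitors of PI3K and mTOR overlapped those of Omipalisib for this gene, with 8035, 12514 and 14426 for BGT-226, 11187, 12166 and 13784 for PF-04691502 and 4811, 12370 and 13594 for Apitolisib. The PI3K inhibitors AZD-8186 and TG-100115 measured 4687, 6792 and 12131, and 5823, 18184 and 20419. BMS-911543 had the next lowest mean for *Socs1* (170 against 89.3 with AZD-2014), *Il6ra* (120 against 76.3), *Il17ra* (836 against 762) and *Eif5* (940 against 789). The next lowest means were those of Filgotinib for *Jun* (584 against 520) and of Pimasertib for *Phlda1* (54.7 against 36). These values are set side by side without a test, since concentrations differed.

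Promoter sequences of *Dusp1* and of 3 further called genes, *Mcoln1*, *Fnip1* and *Rsad2*, are shown because they hold the short motifs that were searched, for FOXO factors (GTAAACA), for basic helix-loop-helix factors such as TFEB and MYC (the E-box CACGTG) and for AP-1 (TGANTCA). The sequences are the 250 bases before the RefSeq start (GRCm38.p6), 5′ to 3′ on the strand of the gene, and capitals mark a motif on either strand.
Mcoln1 (chr8:3500269-3500518, plus strand): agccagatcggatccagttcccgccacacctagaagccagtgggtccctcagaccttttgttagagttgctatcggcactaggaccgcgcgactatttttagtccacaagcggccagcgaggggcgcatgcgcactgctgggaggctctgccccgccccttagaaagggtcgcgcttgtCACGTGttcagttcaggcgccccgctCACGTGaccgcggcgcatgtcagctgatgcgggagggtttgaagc
Fnip1 (chr11:54437929-54438178, plus strand): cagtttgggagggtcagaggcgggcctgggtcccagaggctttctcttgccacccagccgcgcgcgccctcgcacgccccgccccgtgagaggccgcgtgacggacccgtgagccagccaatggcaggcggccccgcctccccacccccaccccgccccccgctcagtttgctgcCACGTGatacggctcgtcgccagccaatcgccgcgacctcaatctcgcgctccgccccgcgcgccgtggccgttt
Dusp1 (chr17:26508473-26508722, minus strand): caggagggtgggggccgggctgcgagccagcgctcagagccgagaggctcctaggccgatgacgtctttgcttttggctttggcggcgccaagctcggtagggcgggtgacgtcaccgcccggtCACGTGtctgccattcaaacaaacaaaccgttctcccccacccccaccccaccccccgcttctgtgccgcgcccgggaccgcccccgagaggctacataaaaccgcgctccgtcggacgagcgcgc
Rsad2 (chr12:26456453-26456702, minus strand): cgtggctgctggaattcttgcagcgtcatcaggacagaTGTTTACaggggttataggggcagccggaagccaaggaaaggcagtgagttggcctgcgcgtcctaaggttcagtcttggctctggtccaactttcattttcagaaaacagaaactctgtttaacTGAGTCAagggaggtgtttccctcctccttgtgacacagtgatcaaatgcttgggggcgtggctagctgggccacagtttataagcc
The *Mcoln1* promoter held 2 E-boxes, those of *Fnip1* and *Dusp1* 1 each, and that of *Rsad2* a FOXO core on the reverse strand and an AP-1 motif. Promoter windows of 300 bases, from 250 before to 50 after the start, were matched for 9131 of the 12714 genes. The E-box was in 14.2% of 1690 genes called higher, 9.34% of 257 called lower and 11.9% of all 9131. The FOXO core was in 3.43%, 1.95% and 3.20%, and the AP-1 motif in 6.63%, 3.89% and 6.22%. The shares are given without a test. A match in these windows is a match of letters and was not tested as a binding site.

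Sterol and fatty acid synthesis held the most lower calls of any of the 25 gene lists. *Msmo1*, a sterol demethylation enzyme, measured 305, 318 and 226 with Omipalisib, 836, 811 and 844 with AZD-2014 and 944 to 1429 (median 1344.5) with DMSO. The 3 groups did not overlap, with AZD-2014 between Omipalisib and the vehicle (-1.57 ± 0.13 (SE), adjusted p = 1.05e-19, a 2.96-fold ratio in favour of AZD-2014). *Cyp51*, lanosterol demethylase, had the same order, with 259, 244 and 242 against 636, 807 and 649 and 999 to 1280 (median 1224.5) with DMSO (-1.48 ± 0.14 (SE), adjusted p = 1.47e-16). *Hmgcs1*, an early enzyme of the pathway, was at 507, 501 and 461 against 1265, 1125 and 1156 and 1604 to 2310 (median 2020) with DMSO (-1.27 ± 0.15 (SE), adjusted p = 9.98e-12). *Idi1*, which isomerizes the isoprenoid unit and was chosen after its values were seen, was at 316, 344 and 259 against 702, 570 and 705 and 835 to 1261 (median 988.5) with DMSO (-1.11 ± 0.20 (SE), adjusted p = 8.83e-06). Omipalisib had the lowest mean of the 60 groups for these 4 genes. Of 35 tested genes of sterol and fatty acid synthesis, 4 were higher and 11 lower (11.4% and 31.4%, against 17.0% and 2.66% of all genes), with a median of -0.29 against 0.14 for all genes, and -0.47 to -0.38 under the other scalings and corrections. The count of lower genes stayed between 10 and 11 when any single replicate was left out.

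The members called higher in this list did other work. *Fasn* and *Elovl6* build fatty acids, *Acsl3* activates them, and *Insig1* holds SREBP back in the endoplasmic reticulum. *Insig1* measured 1399, 1441 and 864 with Omipalisib and 627, 560 and 628 with AZD-2014 (0.99 ± 0.21 (SE), adjusted p = 0.000119). All AZD-2014 values lay below the DMSO range of 1411 to 1952 (median 1727), as did the Omipalisib values of 1399 and 864. *Fasn* was at 498, 404 and 579 against 189, 169 and 426 (1.03 ± 0.39 (SE), adjusted p = 0.0491), with overlapping groups. Of these 4 members 1 was called higher without Omipalisib replicate 1, without Omipalisib replicate 2 or without AZD-2014 replicate 2, and 2 were without AZD-2014 replicate 1. The 4 members called higher were named after their values were seen.

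Of 33 tested PI3K pathway components, 10 were higher and 1 lower (30.3% and 3.03%, against 17.0% and 2.66% of all genes; median 0.52). The number called higher was 3 with the length trend removed and 6 without AZD-2014 replicate 2. *Pik3r1*, the main regulatory subunit, measured 1798, 1836 and 1728 with Omipalisib against 832, 811 and 743 with AZD-2014 and 746 to 1068 (median 1018.5) with DMSO (1.17 ± 0.14 (SE), adjusted p = 1.07e-11). *Pdpk1*, the kinase that activates AKT, was at 333, 378 and 339 against 171, 172 and 192 (0.97 ± 0.17 (SE), adjusted p = 3.61e-06). *Pik3cb*, a catalytic subunit, was at 328, 346 and 272 against 169, 122 and 196 (0.97 ± 0.25 (SE), adjusted p = 0.00178). *Pik3cg*, the catalytic subunit of leukocytes that G-protein-coupled receptors use, was the member called lower, at 589, 664 and 408 against 902, 653 and 1068, with an overlap of both groups (-0.66 ± 0.22 (SE), adjusted p = 0.0222), and its call was lost without Omipalisib replicate 3, AZD-2014 replicate 1 or AZD-2014 replicate 3. For *Pik3cd* the 95% interval was -0.45 to 0.06 around -0.20.

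Among 41 tested mTOR pathway components, 12 were higher and 1 lower (29.3% and 2.44%, against 17.0% and 2.66% of all genes; median 0.28, and 0.02 with the length trend removed). *Fnip1* and *Fnip2* encode the partners of folliculin, which controls the Rag GTPases at the lysosome. *Fnip1* measured 793, 801 and 632 against 246, 159 and 246 (1.79 ± 0.35 (SE), adjusted p = 3.02e-05) and *Fnip2* 2010, 2160 and 1097 against 466, 363 and 391 (2.05 ± 0.41 (SE), adjusted p = 4.52e-05), and the AZD-2014 values of both lay inside the DMSO range. Folliculin itself (*Flcn*), *Rragc*, *Rragd*, *Rptor*, *Mlst8*, *Rictor*, *Mapkap1*, *Lamtor3*, *Mitf* and *Sgk1* were also higher. *Sgk1*, a kinase downstream of mTORC2, was at 3938, 4399 and 2631 against 1782, 1508 and 1529 (1.16 ± 0.15 (SE), adjusted p = 2.27e-10). *Rictor*, the defining subunit of mTORC2, was at 240, 271 and 268 against 156, 69 and 192 (1.02 ± 0.31 (SE), adjusted p = 0.0114). Its call was lost without AZD-2014 replicate 2, with the length trend removed and with the 6 samples alone in the fit, among other settings. *Lamtor1*, the Ragulator subunit that anchors mTORC1 to the lysosome, was lower, at 1735, 1952 and 1573 against 2478, 2734 and 2527, with DMSO at 2214 to 2726 (median 2499) (-0.56 ± 0.10 (SE), adjusted p = 7.89e-06); *Tomt* overlaps it. *Mtor* was not called (156, 159 and 171 against 115, 126 and 164, 95% interval -0.21 to 0.76).

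FOXO-linked genes had medians above the vehicle with either compound. The list median was 1.01 for Omipalisib minus DMSO, 0.57 for AZD-2014 minus DMSO and 0.55 for Omipalisib minus AZD-2014; the last was 0.12 with the length trend removed. In the direct comparison 6 of 25 tested members were higher and 1 was lower (24.0% and 4.0%, against 17.0% and 2.66% of all genes). *Gabarapl1*, an autophagy gene, measured 2689, 2799 and 2461 with Omipalisib, 1365, 1171 and 1268 with AZD-2014 and 573 to 932 (median 738) with DMSO, in 3 separate ranges (1.06 ± 0.16 (SE), adjusted p = 5.53e-08). *Tsc22d3*, which encodes the leucine zipper protein GILZ, was at 347, 416 and 264 against 140, 86 and 124 (1.55 ± 0.25 (SE), adjusted p = 2.91e-07). *Gadd45a*, a DNA damage and growth arrest gene, was at 190, 193 and 110 against 51, 56 and 51 (1.58 ± 0.30 (SE), adjusted p = 2.15e-05), where *E230016M11Rik* overlaps it. *Ccng2*, an atypical cyclin that FOXO factors induce, differed by 0.99. *Sesn1* was the member called lower (-1.18), and was named after its value was seen.

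Other FOXO-linked genes did not pass the test. *Irs2*, the adaptor of insulin receptors, measured 176, 263 and 121 against 87, 103 and 73 with DMSO at 19 to 52 (median 35); the compounds did not overlap, and the test did not pass (1.02 ± 0.44 (SE), adjusted p = 0.0941, 95% interval 0.14 to 1.91). *Pik3ip1*, an inhibitor of PI3K, had overlapping groups (51, 77 and 84 against 51, 30 and 47, adjusted p = 0.188). *Txnip*, *Bcl6* and *Cdkn1b*, chosen after their values were seen, had intervals of -0.50 to 0.50, -0.71 to 0.69 and -0.62 to 0.26 on the log2 scale, while each lay above DMSO by 1.00 or more with either compound. *Klf2* was below the filter on low values and was not tested.

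Of 35 tested cytokines and chemokines 16 were higher and 1 (*Pdgfb*) lower (45.7% and 2.86%, against 17.0% and 2.66% of all genes), with a median of 0.74. Among the AZD-2014 samples, replicate 1 had the highest value for 25 of the 35 genes and replicate 2 the lowest for 28. *Ifnb1*, interferon beta, measured 1727, 2207 and 726 with Omipalisib, 287, 131 and 265 with AZD-2014 and 75 to 262 (median 92.5) with DMSO. Omipalisib values lay above all others, and the AZD-2014 and DMSO ranges overlapped (2.70 ± 0.46 (SE), adjusted p = 2.10e-06). That overlap came from 1 DMSO sample at 262, and the other DMSO samples, at 75 to 129, lay below all AZD-2014 values. AZD-2014 minus DMSO was 0.97 on the log2 scale and was not called (limma, adjusted p = 0.0748). *Ccl2*, the monocyte-attracting chemokine, was at 27618, 31115 and 27303 against 6122, 5372 and 6431 (2.26 ± 0.14 (SE), adjusted p = 9.37e-29), with AZD-2014 just below the DMSO range of 6977 to 8431 (median 7788), and *Cxcl2*, which attracts neutrophils, at 5154, 5870 and 4297 against 1766, 1820 and 2115 (1.42 ± 0.20 (SE), adjusted p = 6.17e-09). *Il6* measured 1072, 954 and 1173 against 449, 139 and 250 (2.08 ± 0.50 (SE), adjusted p = 0.000869), a call lost without replicate 2 of both. *Il10*, the anti-inflammatory cytokine, measured 2466, 2916 and 1530 against 1381, 553 and 850 (1.36 ± 0.51 (SE), adjusted p = 0.043), a call that was lost in 12 of 23 other settings.

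*Tnf* and *Il12b* did not pass the test. *Tnf* was at 9042, 12784 and 9895 against 11290, 5976 and 9101, with overlapping groups and a 95% interval of -0.40 to 1.00. *Il12b*, a subunit of IL-12 and IL-23, was at 3855, 3534 and 3620 against 2876, 1661 and 2306 without overlap (0.72 ± 0.33 (SE), adjusted p = 0.119).

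Interferon-stimulated genes had the highest median of the lists, 0.86, and 16 of 51 (31.4%, against 17.0% of all genes) were higher and none lower. *Rsad2*, the antiviral protein viperin, measured 85142, 71241 and 92964 with Omipalisib, 30612, 17189 and 21964 with AZD-2014 and 18749 to 36278 (median 32738) with DMSO, and Omipalisib lay above both other ranges (1.87 ± 0.33 (SE), adjusted p = 5.44e-06). *Oasl1*, an oligoadenylate synthetase-like gene, was at 13397, 13941 and 12879 against 7096, 4763 and 5205 (1.26 ± 0.24 (SE), adjusted p = 2.71e-05). *Cmpk2*, a neighbour of viperin, was at 24139, 17379 and 37158 against 6056, 4520 and 6494 (2.15 ± 0.45 (SE), adjusted p = 9.58e-05). The AZD-2014 samples were uneven here, as in the list of cytokines and chemokines. Replicate 1 had the highest of the 3 values for 47 of the 51 genes and replicate 2 the lowest for 50. Without AZD-2014 replicate 2 the number called higher was 5 and the median 0.57, without AZD-2014 replicate 1 they were 23 and 1.14, and without Omipalisib replicate 3 9 were higher. The list stood at 0.64 beside DMSO with Omipalisib and at -0.19 with AZD-2014.

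**Figure D4:**
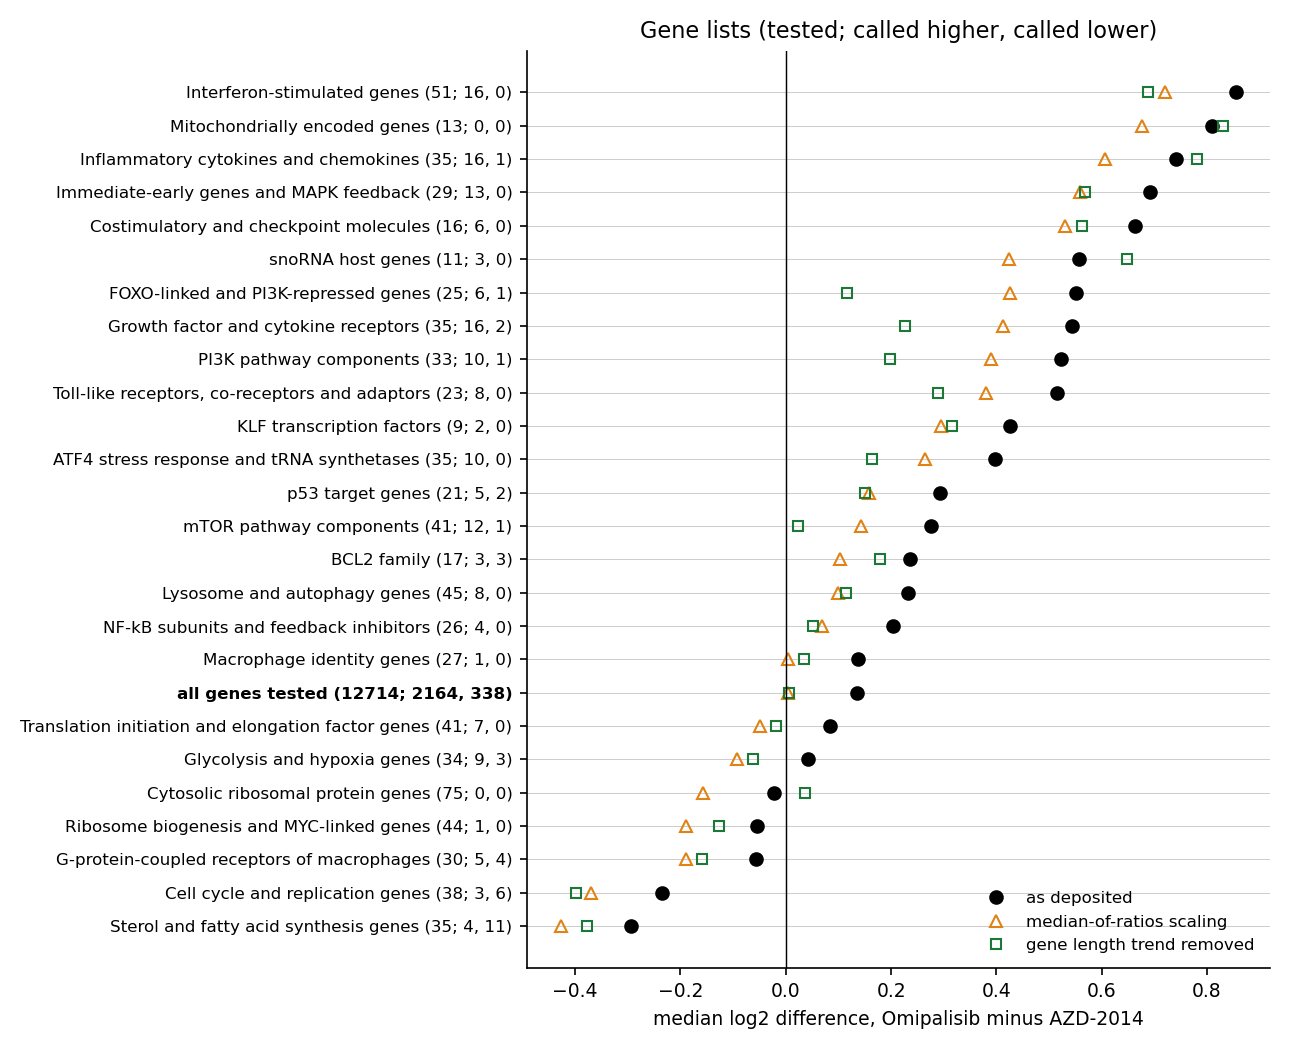
Median log2 difference (x axis) of the tested members of 25 gene lists and of all genes, as deposited (black), after median-of-ratios scaling (orange) and with the length trend removed (green), with the number tested, called higher and called lower beside each name. Interferon-stimulated genes are at the top with 0.86 and sterol and fatty acid synthesis genes at the bottom with -0.29.

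Immediate-early genes, which LPS induces within minutes through MAP kinases, included 13 higher and none lower of 29 (44.8% higher, against 17.0% of all genes; median 0.69). Besides *Dusp1*, *Jun* and *Phlda1*, *Atf3*, a repressor of the LPS response, measured 15465, 16777 and 15809 against 4999, 5921 and 5428 (1.56 ± 0.15 (SE), adjusted p = 1.46e-15). Among 26 NF-kB subunits and feedback inhibitors 4 were higher, a share of 15.4% against 17.0% of all genes. *Tnfaip3*, the deubiquitinase A20, was at 8092, 8289 and 7312 against 3524, 2300 and 2840 (1.47 ± 0.20 (SE), adjusted p = 2.08e-09), while *Nfkbie* (0.36), *Nfkb2* (0.51) and *Relb* (0.68) were called with smaller differences, and after median-of-ratios scaling 1 member was called higher and 1 lower. The count was also 1 without Omipalisib replicate 3 or AZD-2014 replicate 1. Of the 6 fits that left out a single replicate, *Relb* was called only in that without AZD-2014 replicate 3. *Psd* overlaps *Nfkb2*. Both called KLF genes of 9 tested (22.2%, against 17.0%) were higher, *Klf4* with 57, 56 and 55 against 13, 11 and 9 (2.26 ± 0.51 (SE), adjusted p = 0.000374) and *Klf6* with 16775, 19289 and 14517 against 8731, 9209 and 8024 (0.95 ± 0.12 (SE), adjusted p = 5.68e-10).

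Of 35 growth factor and cytokine receptors 16 were higher and 2 (*Ifnar1* and *Ifngr1*) lower (45.7% and 5.71%, against 17.0% and 2.66% of all genes), with a median of 0.54. The number was 6 higher with the length trend removed, 7 without AZD-2014 replicate 2 and 10 without Omipalisib replicate 3. *Ifngr1*, a subunit of the interferon gamma receptor, measured 2944, 2907 and 3152 with Omipalisib and 4039, 4346 and 3790 with AZD-2014 (-0.43 ± 0.08 (SE), adjusted p = 1.46e-05), and it was AZD-2014 that lay above the DMSO range of 2880 to 3353 (median 3024.5). *Csf2rb2*, a receptor subunit for IL-3, differed by 0.65. Of 23 Toll-like receptor genes and adaptors, 8 were higher (34.8%, against 17.0% of all genes; median 0.51), and 4 without AZD-2014 replicate 2. *Tlr4*, the LPS receptor, was at 1197, 1212 and 967 against 589, 387 and 530 (1.18 ± 0.30 (SE), adjusted p = 0.00175). Its call was lost with the length trend removed, with both inhibitors and DMSO alone in the fit, and without replicate 2 of both. *Tlr2*, a receptor of lipopeptides, was at 22493, 20602 and 25707 against 13976, 13116 and 14361 (0.73 ± 0.11 (SE), adjusted p = 8.55e-08), and the adaptor gene *Traf3* at 519, 563 and 446 against 183, 152 and 237 (1.43 ± 0.21 (SE), adjusted p = 6.44e-08).

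Surface molecules that T cells read were higher in 6 of 16 cases (37.5%, against 17.0% of all genes) and lower in none (median 0.66). *Cd274*, the checkpoint ligand PD-L1, measured 9944, 7772 and 9777 with Omipalisib, 2800, 1493 and 1934 with AZD-2014 and 1811 to 3786 (median 3233) with DMSO (2.18 ± 0.34 (SE), adjusted p = 2.43e-07); *Gm36043* overlaps it. *Slamf7*, a receptor of the SLAM family, was at 6786, 6480 and 4902 against 2279, 993 and 1109 (2.14 ± 0.55 (SE), adjusted p = 0.00203), while *Cd83*, a marker of activated antigen-presenting cells, was above the vehicle with either compound, at 28312, 28615 and 29310 against 20860, 23252 and 21664 with DMSO at 12239 to 15779 (median 13931) (0.39 ± 0.12 (SE), adjusted p = 0.014), a call lost in 9 of 23 other settings, among them median-of-ratios scaling, equal totals and removal of the length or GC trend. The number called higher was 3 without AZD-2014 replicate 2, Omipalisib replicate 1 or Omipalisib replicate 2. The call of *Slamf7* was lost without replicate 2 of both.

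G-protein-coupled receptors went both ways, with 5 higher and 4 lower of 30 (16.7% and 13.3%, against 17.0% and 2.66% of all genes). Their median of -0.06 turned to 0.26 without Omipalisib replicate 3 and to 0.14 without AZD-2014 replicate 1, and 2 were lower when any Omipalisib replicate or AZD-2014 replicate 3 was left out. *Hcar2*, a receptor of niacin and beta-hydroxybutyrate, measured 1228, 1148 and 1579 against 546, 442 and 584 (1.33 ± 0.23 (SE), adjusted p = 2.72e-06), and *Ptger4*, a prostaglandin E2 receptor, 1230, 1627 and 1034 against 448, 337 and 660 (1.46 ± 0.25 (SE), adjusted p = 3.46e-06). *Gpr84*, a receptor of medium-chain fatty acids, was lower, at 825, 1066 and 903 against 2831, 2034 and 2959 with DMSO at 1514 to 2154 (median 1949.5) (-1.47 ± 0.28 (SE), adjusted p = 2.30e-05). Other immune genes among the 12 lowest differences were *Ccl24*, an eosinophil-attracting chemokine (46, 44 and 38 against 278, 135 and 236, -2.26 ± 0.50 (SE), adjusted p = 0.000229), *Pou2f2*, the transcription factor OCT2 (100, 106 and 185 against 447, 365 and 491, -1.78 ± 0.35 (SE), adjusted p = 4.88e-05), and *Fscn1*, the actin-bundling protein fascin (93, 84 and 165 against 321, 263 and 565, -1.73 ± 0.48 (SE), adjusted p = 0.00444; not called without AZD-2014 replicate 3). *Il4i1*, an amino acid oxidase that macrophages secrete, was at 577, 558 and 1163 against 2799, 1922 and 3272 (-1.85 ± 0.41 (SE), adjusted p = 0.000277), and the AZD-2014 mean was the highest of the 60 groups. It overlaps the listed *Il4i1b*, and *Cx3cl1*, the membrane-bound chemokine fractalkine (-1.66), overlaps *Gm51543*, so reads of these pairs cannot be told apart.

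Glycolysis and hypoxia genes went both ways. Of 34, 9 were higher and 3 lower (26.5% and 8.82%, against 17.0% and 2.66% of all genes), and the median of 0.04 turned to -0.09 after median-of-ratios scaling. *Pdk1*, the kinase that closes pyruvate dehydrogenase and a HIF-1 target, measured 134, 113 and 174 with AZD-2014, 340, 439 and 340 with Omipalisib and 446 to 1056 (median 510) with DMSO, so that both compounds lay below the vehicle and AZD-2014 further (1.42 ± 0.30 (SE), adjusted p = 1.00e-04). *Ero1a*, an oxidase of the endoplasmic reticulum, had the same order (120, 113 and 155, 300, 268 and 259 and 333 to 695 (median 400.5), 1.10 ± 0.27 (SE), adjusted p = 0.00135). *Eno1*, *Ldha* and *Adm* were called lower; 0 of these calls were left without Omipalisib replicate 2, Omipalisib replicate 3 or AZD-2014 replicate 3, and 1 without Omipalisib replicate 1 or AZD-2014 replicate 2. *Slc2a1* and *Hk2*, the glucose carrier and the inducible hexokinase, were not called, with intervals of -0.35 to 0.19 and 0.06 to 1.54.

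Among 45 lysosome and autophagy genes 8 were higher and none lower, a share of 17.8% against 17.0% of all genes. *Mcoln1*, the lysosomal calcium channel and a TFEB target, whose promoter with E-boxes is printed above, measured 105, 83 and 110 with AZD-2014, below 244, 295 and 203 with Omipalisib and 229 to 445 (median 274.5) with DMSO (1.30 ± 0.22 (SE), adjusted p = 2.28e-06). *Uvrag*, an autophagy regulator, was at 101, 71 and 95 against 310, 369 and 211 (1.70 ± 0.33 (SE), adjusted p = 2.36e-05). *Sqstm1*, the autophagy receptor p62, was among the most abundant named transcripts at 80944, 77684 and 112060 with Omipalisib against 50826, 59444 and 58001 (0.67 ± 0.15 (SE), adjusted p = 0.000403). Of 44 ribosome biogenesis genes 1 was called, *Max*, which was higher (2.27%, against 17.0% of all genes). Their median of -0.06 and the difference of *Myc* (95% interval -0.47 to 0.55) lay near 0, where the median of all genes was 0.14. None of 75 cytosolic ribosomal protein genes was called by limma, where 19.7% of all genes were. Of the 75, 0 had an unadjusted p under 0.05 (against 30.4% of all genes), and 3 had values that did not overlap (against 36.0%). An interval within -1 to 1 was found for 71. The median of the 75 genes was -0.02 between the compounds and 0.56 and 0.60 above DMSO with Omipalisib and AZD-2014. Beside DMSO the medians of all genes were 0.12 and -0.02. Translation factor genes had 7 higher of 41 (17.1%, against 17.0% of all genes), with a median of 0.08 that turned to -0.05 after median-of-ratios scaling; 4 were higher without Omipalisib replicate 3, AZD-2014 replicate 1 or AZD-2014 replicate 2. The 13 mitochondrially encoded genes had a median of 0.81, and the values of both compounds overlapped for each. None was called by limma (against 19.7% of all genes), and 0 had an unadjusted p under 0.05 (against 30.4%). AZD-2014 replicate 1 was the highest and replicate 2 the lowest of the AZD-2014 samples for all 13.

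Genes of growth arrest and death also went both ways. Among 21 p53 targets 5 were higher and 2 lower (23.8% and 9.52%, against 17.0% and 2.66% of all genes). *Mdm2*, the ubiquitin ligase of p53, was at 6506, 6644 and 5790 against 2138, 2278 and 1986 (1.56 ± 0.16 (SE), adjusted p = 5.60e-14) and *Plk2*, a stress-induced polo-like kinase, at 2775, 2638 and 2872 against 922, 791 and 715 (1.78 ± 0.15 (SE), adjusted p = 8.20e-19). In the BCL2 family 3 were higher and 3 lower of 17 (17.6% and 17.6%, against 17.0% and 2.66% of all genes). *Pmaip1*, the BH3-only protein NOXA, was higher (1.56) and *Bmf*, another BH3-only protein, lower, at 19, 14 and 15 against 47, 54 and 59 (-1.68 ± 0.35 (SE), adjusted p = 8.75e-05). Cell cycle genes had 3 higher and 6 lower of 38 (7.89% and 15.8%, against 17.0% and 2.66% of all genes, median -0.24). The proliferation marker *Mki67* was higher, at 2496, 2671 and 2212 against 1635, 1149 and 1599 (0.76 ± 0.21 (SE), adjusted p = 0.00415). Its call was lost without AZD-2014 replicate 2 and with the length trend removed, among other settings. The mitotic kinase gene *Aurka* was at 178, 154 and 126 against 307, 289 and 318 (-1.01 ± 0.20 (SE), adjusted p = 4.69e-05), and *Plk1* differed by -0.66 (not called without AZD-2014 replicate 2) and *Birc5*, which encodes survivin, by -0.45; 3 were lower without Omipalisib replicate 1, Omipalisib replicate 3 or AZD-2014 replicate 3, and 2 without AZD-2014 replicate 2. *Ccnd1*, cyclin D1, had the lowest mean of all 60 groups with Omipalisib, and its direct difference did not pass as deposited (522, 766 and 634 against 915, 1531 and 2048, -1.17 ± 0.47 (SE), adjusted p = 0.0649). It was called lower in 7 of 23 other settings, among them median-of-ratios scaling, the 6 samples alone and removal of the length or GC trend, and *LTO1* overlaps it. Of 27 macrophage identity genes 1 was called (3.70% higher, against 17.0%), *Mertk*, a receptor for dying cells, at 450, 331 and 463 against 203, 232 and 175 (1.02 ± 0.19 (SE), adjusted p = 2.04e-05). Small nucleolar RNA host genes had a median difference from DMSO of 1.76 for Omipalisib and 0.94 for AZD-2014, and 3 of 11 (27.3%, against 17.0% of all genes) were higher in the direct comparison. The call of *Zfas1*, 1 of these 3, was lost in 13 of 23 other settings.

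The place of both compounds among the 60 groups described the same pair of patterns. Of the 2164 genes called higher, Omipalisib had the highest or next highest mean of all groups for 1126 (52.0%, against 17.2% of all genes), and AZD-2014 had the lowest for 696 (32.2%, against 9.59%). BGT-226 had the highest mean for 931 of them (43.0%), and for 2668 of all 12714 genes. Of the 338 genes called lower, Omipalisib had the lowest mean for 201 (59.5%, against 7.11%) and AZD-2014 the highest for 32 (9.47%, against 1.64%). A gene called between these compounds is more likely to lie at an end of the range, so the shares are a description. For *Atf4*, BGT-226 samples reached 9832, 9951 and 10468 and Afatinib samples 4987, 5834 and 5933, while PF-04691502 (1448, 1670 and 1698) and Apitolisib (1640, 1688 and 1830) stayed near DMSO. For *Msmo1*, BGT-226 and PF-04691502 lay between Omipalisib and AZD-2014, at 384, 568 and 602 and 519, 607 and 609, and the AKT inhibitor MK-2206 was at 1051, 1232 and 1261.

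**Figure D5:**
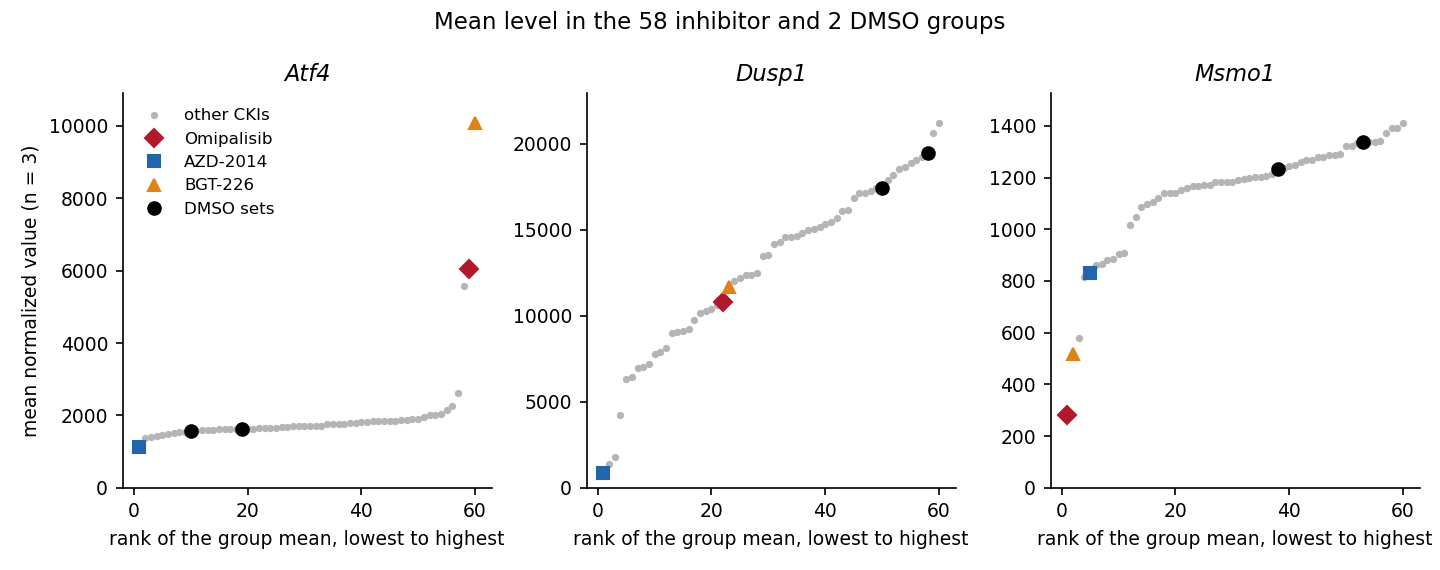
Mean normalized value (y axis, n = 3) of *Atf4*, *Dusp1* and *Msmo1* in the 58 inhibitor groups and 2 DMSO sets, ordered from lowest to highest (x axis). AZD-2014 is lowest for *Atf4* and *Dusp1*, Omipalisib is next to highest for *Atf4* and lowest for *Msmo1*.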

How the data were processed

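Polyadenylated RNA of mouse bone marrow-derived macrophages was sequenced after SMART-seq2 library preparation. The authors aligned reads to mm10 with TopHat2 2.1.1, removed blacklisted regions with bedtools 2.29.2, counted reads in RefSeq exons, scaled the counts on invariant genes (R 3.6.2), and tested them with DESeq2 without its own normalization. The deposited values are such scaled counts rounded to whole numbers by the authors, so they were treated as a score and no count model was fitted to them. The strand setting of the counting is not given in the sources used here.

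Genes with a mean of at least 10 over the 180 samples were kept (12714 of 45070). Their log2(value + 1) was fitted in R 4.3.3 with limma 3.58.1 (moderated test with a variance trend, two-sided) over all 60 groups, and p-values were adjusted by Benjamini and Hochberg over all genes tested. The fold change understates the change of low genes on this scale. Samples labelled as replicates were treated as independent, as the methods state; p-values measure the spread between these samples. An exact permutation test of 3 against 3 samples cannot go below p = 0.1. The labels spell AZD-2014 as AZD2014. Every column matched a sample (0 did not).

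The comparison and all gene lists were chosen with earlier results of these data known, so lists are described by counts and medians without a test. Genes were named by rule: the 12 largest and 12 lowest differences among called genes without overlap and with a mean of at least 50 in the higher group, up to 4 called genes per list by adjusted p, and a set of pathway genes whatever their result; others are marked as chosen after their values were seen. A few genes are not reported here. Transcript lengths came from the deposited table, and GC content from GENCODE transcripts for 11994 genes (94.3%). Promoters came from RefSeq (GRCm38.p6). Alternatives covered the pseudocount, filters, scaling, samples in the fit, variance trend, replicate number, mitochondrial share and each replicate left out; removal of length and GC trends was chosen after seeing the data. The fit was tested on simulated data. Tables and figures were made with Python 3.11.15, pandas 2.3.3, NumPy 2.4.6, SciPy 1.17.1 and matplotlib 3.10.9.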

Additional observations from a re-analysis of the deposited data

Results flagged for a closer look

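Among the 6 DMSO samples, 1 sample stood far from the other 5 for 11 of the 115 named genes, by the gap to its nearest neighbour relative to the whole range; chance gives about 1 in 20. The distant sample was not the same for every gene. Replicate 1 of the second DMSO set was the highest for *Hamp* (35, the others 5 to 11), *Cd80* (73, the others 26 to 41), *Plk2* (1394, the others 1004 to 1122) and *Ifnb1* (262, the others 75 to 129), and the lowest for *Cyp51* (999, the others 1199 to 1280). Replicate 2 of that set was the highest for *Pdk1* (1056, the others 446 to 561) and *Mcoln1* (445, the others 229 to 286). Replicate 3 of the first set was the lowest for *Max* (924, the others 980 to 1012), *Klf6* (5409, the others 6907 to 7442), *Traf3* (145, the others 265 to 317) and *Pik3cg* (321, the others 796 to 973). The direct comparison of the inhibitors does not use DMSO as its reference.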

How the results depend on the processing

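Of 116 named genes with a test, 105 were called. Of these, 80 were called under each of the 23 other settings in which they were tested, and a filter left some of them untested in 1 setting. The 2164 higher and 338 lower genes became 1607 and 841 with median-of-ratios scaling, 1325 and 794 with equal totals, 1257 and 748 with the length trend removed, 1540 and 889 with the GC trend removed, 2020 and 222 with the 6 samples alone, and 1100 and 107 with both inhibitors and DMSO alone. They were 1035 and 70 with a log2 difference of at least 1, and 1432 and 163 at an adjusted p under 0.01. With replicates left out, counts ran from 985 (without replicate 2 of both) to 2089 higher and from 106 (without replicate 3 of both) to 317 lower. The main test used no replicate block. Deviations of same-numbered samples correlated at 0.38, 0.04 and 0.22 across genes, which did not all pass the cutoff set for pairing. Differently numbered samples correlated at -0.31 to 0.14, and each Omipalisib sample correlated most with the same-numbered AZD-2014 sample. An effect shared by same-numbered samples was not tested further than by the block given next. A replicate block gave 2754 higher and 686 lower, and with the mitochondrial share added 2850 and 822. The direction turned only for named genes that were not called: *Mtor* (-0.25 with the length trend removed), *Myc* (-0.093 with median-of-ratios scaling, -0.13 with equal totals, -0.049 with length and -0.0081 with GC trends removed, -0.15 to 0.26 with replicates left out), *Slc2a1* (-0.22 to 0.0063 with replicates left out) and *Tnf* (-0.10 to 0.61 likewise). The cause was not tested. With 3 samples a group and the spread taken within all 60 groups, the median SE was 0.251 on the log2 scale.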
